A study of Mus musculus with 6 samples.

Results

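The 10 genes described here encode proteins that coat lipid droplets, join them or break down the triglyceride stored in them. They were chosen by name as rows of the deposited gene table: Plin2, Plin4 and Plin5 (perilipins), Cidea, Cideb and Cidec (CIDE proteins), Pnpla2 and Pnpla3 (patatin-like phospholipase domain proteins), and G0s2 and Abhd5 (regulators of the lipase encoded by Pnpla2). All 10 were among the 16123 genes of the table, and in 8 of them the values of both genotypes averaged 10 or more. The 11367 genes of the table at or above that average are called expressed genes below. Livers came from male mice, 2 months old at the start, fed a purified chow diet based on AIN-93 for 4 weeks and fasted for 16 h. The 2 groups were wild type mice (WT, labelled C57BL/6Rj) and homozygous Txndc5 Knockout mice (KO, C57BL/6JRj-Txndc5<em2Mdnp>/Ciba), with 3 libraries each, every library made from a pool of equal RNA amounts of 3 mice. The KO line carried a germline deletion of exon 3, made with CRISPR/Cas9 and present in every tissue, and went back to 1 founder. Animals of both genotypes were born of heterozygous crosses. Txndc5, a protein disulfide isomerase of the endoplasmic reticulum, is a gene whose hepatic expression had been linked to fatty liver, and the comparison asked how the liver transcriptome differs in its absence.

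A hepatic lipid droplet is a core of triglyceride and sterol ester under a single layer of phospholipid, and perilipins on its surface limit the access of lipases. During a fast, fatty acids from adipose tissue are esterified in hepatocytes, stored in droplets and released again by lipolysis. Adipose triglyceride lipase, encoded by Pnpla2, takes the first fatty acid from triglyceride. It is activated by the protein of Abhd5 (CGI-58) and inhibited by that of G0s2. CIDE proteins act where droplets touch and pass lipid from one droplet to another, and Cideb also takes part in the lipidation of very low density lipoproteins. Plin2, Plin5, Cidec, Pnpla2 and G0s2 are known targets of the nuclear receptor PPAR alpha, the main regulator of the hepatic response to fasting.

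The sequences before the start sites of 3 members are shown because these genes lay at the ends of the range of levels and ratios. Plin2 and G0s2 had high levels, G0s2 had the lowest ratio of KO to WT, and Pnpla3 had the lowest level. They are RefSeq windows of 250 bases before the start on GRCm38.p6, and capitals mark CCAAT on either strand, or the cAMP response element TGACGTCA, while the G0s2 window holds none of these motifs.
Plin2, chr4:86670060-86670309, minus strand: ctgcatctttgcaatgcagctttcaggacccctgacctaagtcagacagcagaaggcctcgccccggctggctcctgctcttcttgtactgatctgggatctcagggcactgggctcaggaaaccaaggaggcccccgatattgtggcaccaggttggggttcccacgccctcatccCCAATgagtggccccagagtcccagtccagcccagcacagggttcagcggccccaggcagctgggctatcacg
G0s2, chr1:193273189-193273438, minus strand: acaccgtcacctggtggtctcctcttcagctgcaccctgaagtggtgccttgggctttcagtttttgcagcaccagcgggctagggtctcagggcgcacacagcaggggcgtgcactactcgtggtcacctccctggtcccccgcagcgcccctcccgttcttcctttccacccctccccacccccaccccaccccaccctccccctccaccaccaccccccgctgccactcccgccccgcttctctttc
Pnpla3, chr15:84167566-84167815, plus strand: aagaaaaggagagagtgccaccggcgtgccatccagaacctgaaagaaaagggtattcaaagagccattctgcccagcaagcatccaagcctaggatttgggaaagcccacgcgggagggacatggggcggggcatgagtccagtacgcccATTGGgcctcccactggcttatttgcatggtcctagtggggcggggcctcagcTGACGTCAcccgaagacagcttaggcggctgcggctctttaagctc

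RefSeq windows were matched by symbol for 9 members, which had 11 windows in all, and no window was matched for Cidea. A search of both strands for AGGTCA repeated 1 base apart in the same direction, the site of PPAR with RXR, found no match in a member window and matches in 0.0335% of the 32851 windows of all genes. With AGGNCA in its place, members again had no match, against 0.338% of all windows. The sterol response element TCACNCCAC (1.05% of all windows) and the E-box CACGTG (6.02%) had no match in member windows either. TGACGTCA, present in 1.55% of all windows, was found in that of Pnpla3, from 46 to 39 bases before the start. CCAAT, present in 33.8% of all windows, was found in those of Plin2, Plin4, Plin5 and Pnpla3, and TATAAA, present in 12.4%, in that of Cideb. No match says only that these letters were not in these windows.

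The libraries held 44040160 to 46050030 clean reads, and a two-sided exact permutation test of KO against WT gave p = 0.3 (n = 3 each, smallest possible p 0.1). The share of clean reads mapped was 91.6 to 93.7%. Txndc5 had a normalised value of 2697 in WT and of 90.8 in KO, 29.7-fold lower. Albumin, the main secreted protein of hepatocytes, had 1329546 in WT and 1332576 in KO. Over the expressed genes, the log2 ratio of KO to WT had a median of −0.05, and 57.7% of them had a negative ratio.

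The deposited table holds 1 normalised value per genotype, which the authors formed from 3 libraries, so the 8 more abundant members have no replicate values and no test was made on them. Ratios formed from these values are also drawn towards 1. Over genes for which reads of every library could be recovered, the pooled log2 ratio was on average 0.416 of the ratio of the recovered means where the normalised reads of all libraries summed to 20 to 60 (1380 genes), 0.651 at 60 to 200 (1889 genes) and 0.748 at 200 to 400 (1331 genes). Genes above 400 could not be checked in this way.

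In the pooled values, no member differed by more than 1.5-fold between genotypes. From the means of recovered reads, which are not drawn towards 1, Cidea was 1.68-fold and Pnpla3 1.77-fold higher in KO, with groups that overlapped in both. These folds rest on 35 against 16 reads and 7 against 4, and without KO library b the difference in normalised reads went from 4.15 to −0.38 for Cidea and from 0.95 to 0.10 for Pnpla3. In the pooled values of the 11367 expressed genes, 1.57% were higher in KO by more than 1.5-fold and 5.79% lower. With a limit of 1.2-fold on the pooled values, G0s2 was lower in KO and Cidea higher. Of the same genes, 11.7% were higher by more than 1.2-fold and 21.1% lower, so that 2 of 10 members was not above the background. Cidea itself, with a mean of 8.17, was not an expressed gene by this definition. The members had pooled log2 ratios from −0.29 to 0.28 with a median of −0.02. There were 4 members with a higher value in KO and 6 with a lower value. Centred on the median of 14106 genes (those whose mean was 1 or more), Pnpla2 and Abhd5 changed sign, from −0.02 to 0.03 in both, and the other 8 members did not.

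**Figure D1:**
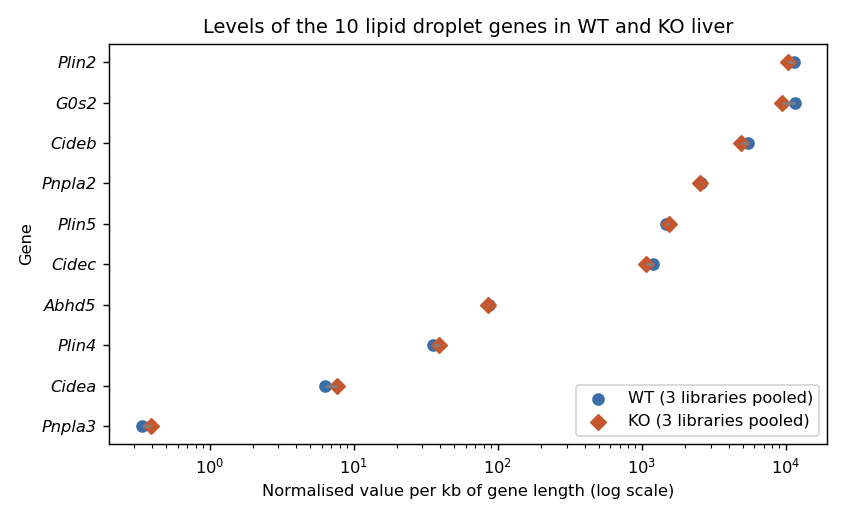
Normalised value per kb of gene length (x axis, log scale) of the 10 genes in WT (circles) and KO (diamonds), each point being 1 value that the authors pooled from 3 libraries, with no error bar for that reason. The genes span from 0.340 (Pnpla3 in WT) to 11502 (G0s2 in WT), while each gene's 2 genotypes lie close together.

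Per kb of gene length, Plin2 ranked 149 and G0s2 154 among the 16123 genes of the table, Cideb 284, Pnpla2 493, Plin5 777 and Cidec 962. Abhd5, at 4819, and Plin4, at 6765, lay far lower, and Cidea ranked 10311 and Pnpla3 14295. The ranks use the mean of both genotypes and carry no error.

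Pnpla2 (chr7:141455198-141460743, plus strand, GRCm38) had a value of 6795 in WT and of 6693 in KO (log2 ratio −0.02). A ratio at least as far from 0 was found in 93.4% of expressed genes. Abhd5 (chr9:122351608-122381524, plus strand), the coactivator, had 274.2 in WT and 270.0 in KO (log2 ratio −0.02). For each of these genes the genotypes differed by little, and per kb the lipase was 29.6 times as high as the coactivator in WT and in KO. Of the exonic bases of Abhd5, 16.0% lie over exons of an antisense gene, A730085K08Rik, and the library kit did not mark the strand.

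G0s2 (chr1:193272161-193273217, minus strand), the inhibitor of the lipase, had 9742 in WT and 7970 in KO. This was 1.22-fold lower in KO (log2 ratio −0.29), the largest pooled ratio in size among the 8 expressed members. Of expressed genes, 29.0% had a ratio at least as far from 0. Relative to the same median of 14106 genes the log2 ratio of G0s2 was −0.24, short of 1.2-fold. Per kb of gene length, G0s2 was 4.46 times as high as Pnpla2 in WT and 3.70 times in KO. The value per kb of the inhibitor was thus above that of the lipase in both genotypes, with a smaller excess in KO that was not tested.

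Pnpla3 (chr15:84167837-84187236, plus strand), whose protein sits on droplets and is a target of SREBP1c and insulin in the fed liver, had the lowest level of the members. Its pooled values were 1.58 in WT and 1.81 in KO. The recovered reads were 2, 4 and 1 in the KO libraries a, b and c and 3, 0 and 1 in the WT libraries a, b and c, where letters follow falling size factor within a genotype and do not stand for pool numbers. The groups overlapped. The KO libraries held 7 reads in all (95% Poisson interval 2.81 to 14.4, counting error only) and the WT libraries 4 (1.09 to 10.2). Normalised reads were 2.17 ± 1.48 in KO and 1.22 ± 1.22 in WT (SD, n = 3 each; two-sided exact permutation test, p = 0.5, in a design whose smallest possible p is 0.1). The difference of 0.95 was 0.10 without KO b and 0.34 without WT b, and it turned to −0.51 without both, an alternative chosen after seeing the data. The 0 of WT library b allows up to 3.69 reads (upper end of the 95% Poisson interval). Gm49513 shares 6.78% of the 1548 exonic bases that GENCODE M21 gives Pnpla3, while its deposited length was 4649 bases.

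Among the perilipins, Plin2 (chr4:86648386-86670060, minus strand), the main droplet coat of hepatocytes, was the highest. It had 21324 in WT and 19495 in KO (log2 ratio −0.13), and 61.5% of expressed genes had a ratio at least as far from 0. Plin5 (chr17:56111601-56117596, minus strand), which tethers droplets to mitochondria in oxidative tissues, had 2897 in WT and 3075 in KO (log2 ratio 0.09). Plin4 (chr17:56100591-56109803, minus strand), a perilipin of adipocytes that lies 1797 bases from Plin5 on the same strand, had 203.5 in WT and 224.9 in KO (log2 ratio 0.14). The 3 genes kept the order Plin2, Plin5, Plin4 per kb in both genotypes. Of their summed values per kb, Plin2 made up 88.3% in WT and 86.6% in KO, Plin5 11.4% and 13.0%, and Plin4 0.276% and 0.328%. Plin2 was 7.72 times as high as Plin5 in WT and 6.65 times in KO. A pseudogene, Gm12551, shares 2.57% of the 50-base stretches of Plin2, and Plin4 and Plin5 share none with another gene.

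Among the CIDE genes, Cideb (chr14:55754050-55758458, minus strand), the form of hepatocytes, had 6463 in WT and 5808 in KO (log2 ratio −0.15). Cidec (chr6:113424634-113435760, minus strand), which is abundant in white fat and rises in fatty and fasted liver, had 2032 in WT and 1826 in KO, also −0.15. The ratio of Cideb to Cidec per kb was therefore the same, 4.56, in both genotypes. Of the summed values of the 3 CIDE genes per kb, Cideb made up 81.9% in WT and in KO, Cidea 0.0954% and 0.129%, and Cidec the rest. The value of Cideb is uncertain, because 76.3% of its exonic bases (1136) overlap those of Nop9 on the other strand and reads of the 2 genes cannot be told apart without strand. Nop9 itself was counted at 360.0 in WT and 372.2 in KO.

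**Figure D2:**
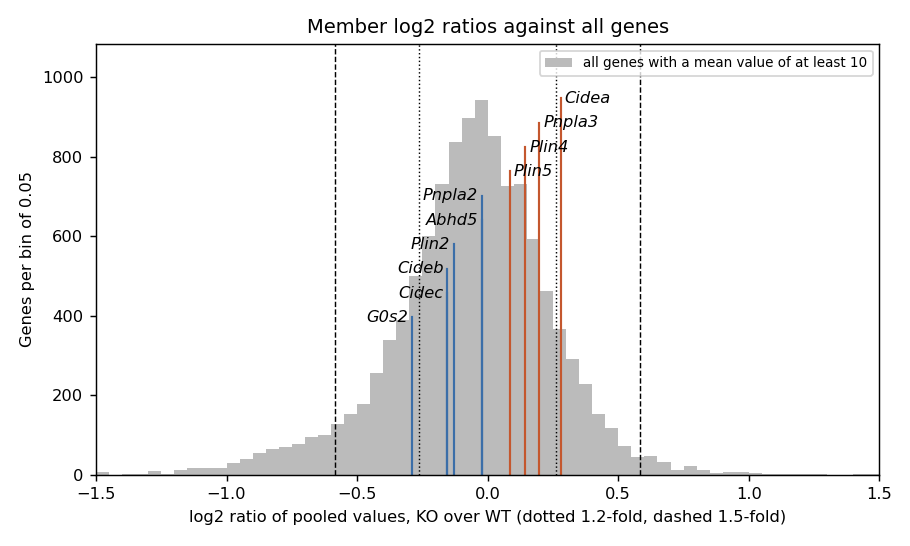
Number of genes (y axis) by log2 ratio of pooled KO to WT values (x axis, bins of 0.05) over the 11367 expressed genes, with the 10 members drawn as vertical lines whose height only separates the names (blue, lower in KO; orange, higher). All 10 lie between −0.29 and 0.28 within the bulk of genes. Cidea and Pnpla3 have means below 10 and are not counted in the bars, and genes beyond 1.5 are counted in the outermost bins.

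Cidea (chr18:67343604-67367785, plus strand), the CIDE form of brown fat that is also induced in fatty liver, had pooled values of 7.38 in WT and 8.96 in KO, 1.21-fold higher in KO. Its recovered reads were 15, 20 and 0 in KO libraries a, b and c and 0, 15 and 1 in WT libraries a, b and c. Reads came almost entirely from KO a, KO b and WT b, so that each genotype held libraries with and without Cidea and the groups overlapped. Normalised reads were 10.2 ± 9.71 in KO and 6.09 ± 9.52 in WT (SD, n = 3 each; two-sided exact permutation test, p = 0.7). The difference, 4.15 normalised reads higher in KO, became −0.38 without KO library b, which changed its direction. Leaving out each library in turn gave −0.38 to 9.63, the highest without WT library b. The 0 counts of KO c and WT a each allow up to 3 reads.

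The libraries with Cidea also held genes of other tissues. Ucp1, the uncoupling protein of brown fat, had 7, 11 and 0 reads in the KO libraries and 0, 11 and 0 in the WT libraries. Ucp1 so lay in the same 3 libraries, but other brown fat genes also had reads in KO c, WT a and WT c. Cox7a1 had 15, 6 and 10 reads in KO and 3, 13 and 13 in WT. Cox8b had 14, 5 and 5 in KO and 1, 14 and 5 in WT, and Slc36a2 19, 1 and 0 and 1, 7 and 0. Plin1, the perilipin of adipocytes, had 40, 7 and 1 reads in KO and 0, 4 and 0 in WT. Adipoq, which encodes adiponectin, had 61, 4 and 1 reads in KO and 0, 2 and 0 in WT. Both genes were highest in KO a, but KO c lay below WT b, so that the groups overlapped, and the exact permutation test gave p = 0.2 for each (n = 3 against 3).

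Of 8 adipocyte markers, 7 were in the table, and their normalised reads summed to 411, 99.4 and 32.7 in KO libraries a, b and c and to 108, 150 and 52.6 in the WT libraries. Among these markers Adipoq, Plin1, Ucp1 and Retn were at 0 in WT a and WT c. Retn, which encodes resistin and was the lowest of them, had 8, 3 and 0 reads in KO and 0, 1 and 0 in WT. Cfd, the most abundant of them, which encodes adipsin, had 259, 50 and 10 reads in KO and 5, 46 and 14 in WT. Adrb3 made up 108 of the 132 reads of the list in WT a, and unlike most of the list its pooled value was lower in KO (log2 ratio −0.78). A list of 8 brown fat genes, chosen after values were seen, summed to 57.1, 79.2 and 33.9 in KO and to 12.2, 104 and 39.1 in WT. Kcnk3 alone made up 52 of the 82 reads of this list in KO b and 38 of the 91 in WT b. A list of 8 adrenal cortex genes, likewise chosen afterwards, summed to 19.8, 323 and 12.4 in KO and to 25.3, 263 and 8.56 in WT. One of them, Hsd3b1, a steroidogenic enzyme, had 74 reads in KO b, 53 in WT b and 0 in the other 4 libraries. The part of other tissues in the reads of Cidea was not tested. In bulk RNA, fewer cells of a type and less RNA per cell cannot be told apart.

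**Figure D3:**
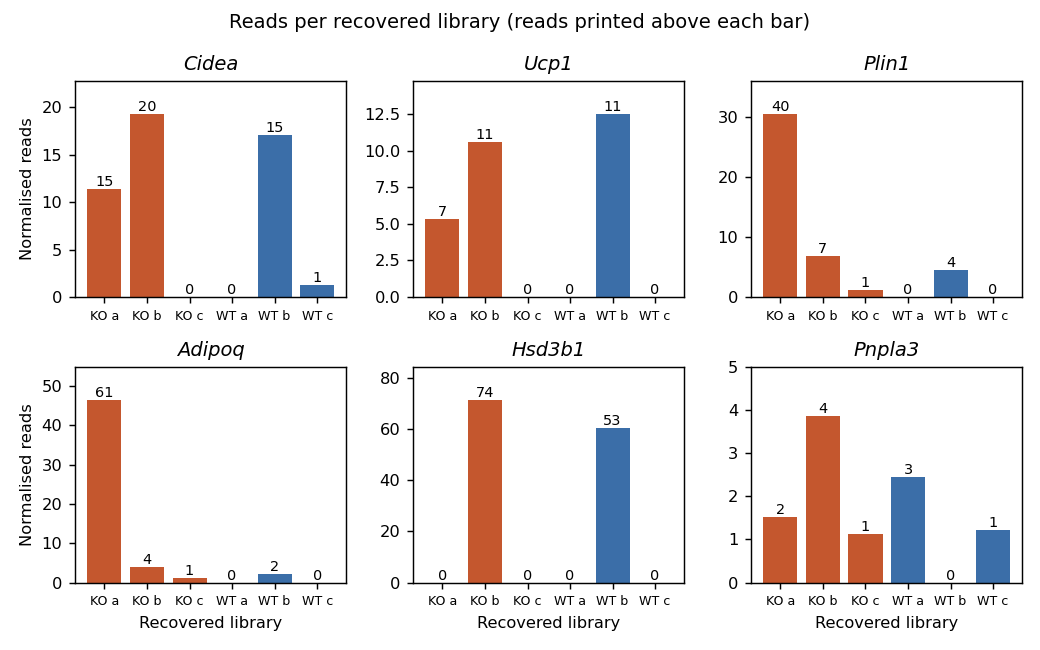
Normalised reads (y axis) of 6 genes in the 6 recovered libraries (x axis, KO orange, WT blue), with the recovered reads printed above each bar. Cidea and Ucp1 stand in KO a, KO b and WT b, Plin1 and Adipoq mostly in KO a, Hsd3b1 in KO b and WT b, and Pnpla3 has at most 4 reads in any library.

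A fit across all genes with recovered reads and sums from 60 to 400 (limma with Benjamini-Hochberg adjustment, 3221 genes, 3 libraries against 3) called 0% at an adjusted p under 0.05 and 1.65% (53 genes) at an unadjusted p under 0.05. With a term for KO a and WT a, the fit called 2 genes at the adjusted limit and 244 at the unadjusted one, and leaving out 1 library gave 21 (without KO b) to 165 (without KO a) at the unadjusted limit. No member lay in that range. With sums from 20 to 400 (4603 genes), Cidea entered the fit with a log2 difference of 0.88 (SE 1.26; limma, adjusted p = 0.999).

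The other genes of the pathway were read from lists, beside the median of −0.05 and the shares above for all genes. Of 20 other lipid droplet and neutral lipid genes, 11 were higher in KO and 9 lower (median log2 ratio 0.05). Counts past a fold cover the expressed genes of each list. Of the 18 expressed genes here none passed 1.5-fold, 5 were higher and 2 lower by more than 1.2-fold. Plin1, below the minimum with pooled values of 4.60 in WT and 9.71 in KO, was 2.11-fold higher. Its recovered normalised reads averaged 12.8 in KO and 1.52 in WT, an 8.43-fold ratio that rests on 48 against 4 reads, and 40 of the 48 lay in KO a. Among the expressed genes the largest ratios were those of Hsd17b11, a droplet-associated dehydrogenase (5603 in WT, 7600 in KO, log2 ratio 0.44), and Pcyt1a, which makes CDP-choline for the phospholipid surface (728 and 987, 0.44). Of 15 other lipases, 14 were in the table, 11 of them higher and 3 lower, with a median of 0.04. Pnpla8, a phospholipase of mitochondria and peroxisomes, was the one past 1.5-fold, with 568 in WT and 369 in KO (−0.62). Ddhd2, a triglyceride lipase best known in neurons, had 130.6 and 178.9 (0.45).

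Of 20 PPAR alpha targets of fasting, 15 were higher in KO and 5 lower (median log2 ratio 0.11). None passed 1.5-fold, while 8 were higher and 1 lower by more than 1.2-fold. Cyp4a14, which hydroxylates fatty acids at the end of the chain, had 72416 in WT and 103093 in KO (0.51), and Ppara itself had 3501 and 4872 (0.48). The members known as targets of the same receptor gave −0.13 (Plin2), 0.09 (Plin5), −0.15 (Cidec), −0.02 (Pnpla2) and −0.29 (G0s2). No test of the lists against each other was made.

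Of 12 lipogenic targets of SREBP1c and ChREBP, 9 were higher in KO and 3 lower (median log2 ratio 0.25). Fasn, fatty acid synthase, was the one past 1.5-fold, with 1509 in WT and 2555 in KO (0.76), and Thrsp had 278.9 and 379.9 (0.45). Of 14 genes of the cAMP and insulin inputs to lipolysis, 9 were higher and 5 lower, with a median of 0.05. Irs2, an adaptor of the insulin receptor, had 226 in WT and 381 in KO (0.75). The beta-adrenergic receptors Adrb1 and Adrb3, which raise cAMP, had pooled log2 ratios of 0.63 and −0.78. In recovered reads their log2 differences were 0.81 (SE 0.51) and −0.86 (SE 0.65), both with an adjusted p of 0.999 in limma. Adrb3 had 44, 14 and 10 reads in KO and 108, 15 and 18 in WT, and without WT a its log2 difference was −0.15 (limma, SE 0.57).

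**Figure D4:**
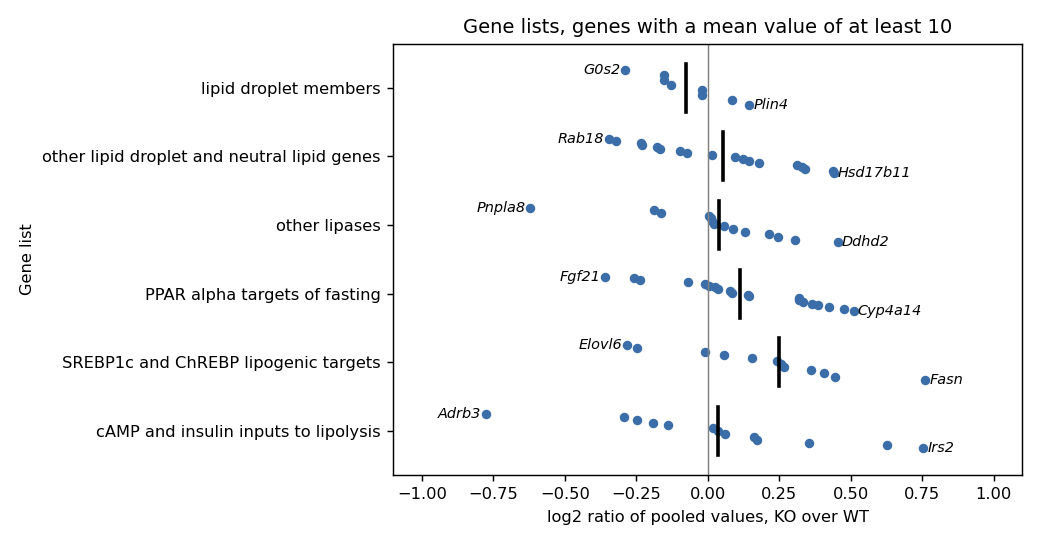
Log2 ratio of pooled KO to WT values (x axis) of the expressed genes in each list (y axis), 1 point per gene spread vertically by rank, with the list's median as a bar and the lowest and highest gene named. The 8 expressed members have a median of −0.08 and the lipogenic list 0.25.

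The pooled values of markers of other cell types were read in the same way, with no test. All 5 red cell markers had a higher value in KO (median log2 ratio 0.56), 2 of them by more than 1.5-fold. The most abundant of the 5, Hba-a1, had 55601 in WT and 82090 in KO, 1.48-fold higher. The median of 5 Kupffer cell markers was 0.46, with 4 higher in KO and 1 lower. Cd5l, their most abundant by the mean of both genotypes, had 832 in WT and 1142 in KO, and Clec4f 895 and 865. The median of 5 stellate cell markers was −0.14, with 2 higher and 3 lower. Dcn, their most abundant, had 1296 and 915, and Reln 497 and 558. Of 6 hepatocyte markers 2 were higher and 4 lower (median −0.18). Apob was at −0.52, Apoa1 at −0.40, Ttr at −0.26 and Cps1 at −0.10. Hnf4a was at 0.23, and the values of Alb were almost equal. The part of these differences in the members' ratios was not tested.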

How the data were processed

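Livers of WT and Txndc5 Knockout mice were studied as 6 libraries of polyadenylated RNA, 3 per genotype. The authors deposited a gene table with 1 normalised signal per genotype (gene counts divided by size factors and pooled over 3 libraries) and summaries with clean read counts and mapping percentages for each library, as the deposited headers name them in count and percent. The labels' processing notes name mm10, HISAT2, Bowtie2, RSEM, StringTie, Cufflinks and GATK, without roles. Columns with the authors' own fold changes and p-values were not used.

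The log2 ratio of KO to WT was taken without a pseudocount. The sum of normalised reads over the 6 libraries was resolved into whole reads per library by enumeration for genes with sums up to 400: 7977 of 8081 genes (98.7%) had a single solution, and the method was tested on simulated data. Library size factors were 1.31, 1.04 and 0.886 (KO a to c) and 1.22, 0.879 and 0.818 (WT a to c). Of the members, 2 could be resolved and 8 could not. limma 3.58.1 (R 4.3.3, trend) was fitted to log2(normalised reads + 1) with Benjamini-Hochberg adjustment. In simulated libraries of the same 3 against 3 design (3137 genes) it called 37 of 100 genes changed by log2 1 and 82 of 100 changed by log2 2. The simulation gave all genes the same spread setting and no library more reads of other tissues. These counts therefore need not hold for the real libraries. Single values were compared by two-sided exact permutation tests. Each pool held RNA of several mice, so p-values measure the spread between pools, not between animals.

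Positions and shares of exonic bases are from GENCODE M21 (GRCm38), whose exonic bases differ from the deposited gene lengths used for values per kb. Members and lists were chosen with earlier results of these data known. Named genes were all members, Txndc5, genes past 1.5-fold of the pathway lists (up to 5, otherwise the 2 largest in size) and, of the marker lists, the most abundant gene and those at or near 0. Other markers, and brown fat and adrenal genes, were named after their values were seen. Gene values at other pseudocounts, centring, filters and library sets were also computed. The planned comparison of protein sequences was not made.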

Additional observations from a re-analysis of the deposited data

How the results depend on the processing

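In the pooled values, no member passed 1.5-fold under any pseudocount, centring or filter tried, while the means of recovered reads gave 1.68-fold for Cidea and 1.77-fold for Pnpla3. The number of members past 1.2-fold in the pooled values was 2, and became 1 with a pseudocount of 1, with centring on the median log2 ratio of the 14106 genes with a mean of 1 or more, and with only members of a mean value of at least 10. The median log2 ratio of members was −0.02 and became 0.03 when centred. The KO minus WT difference in normalised reads of Cidea ranged from −0.38 to 9.63 on leaving out each library, and that of Pnpla3 from 0.10 to 1.56. Without the library of largest size factor in each genotype (KO a and WT a) they were 0.51 and 1.88. Without the KO and WT libraries that hold adrenal cortex reads (KO b and WT b), an alternative chosen after seeing the data, these differences were 5.10 for Cidea and −0.51 for Pnpla3. limma called 0 genes at an adjusted p under 0.05 and called 2 when KO a and WT a were given a term. Genes at an unadjusted p under 0.05 numbered 53, 244 with that term, 90 with sums from 20 to 400, 15 without KO b and WT b, and 21 to 165 on leaving out each library. The cause of these changes was not tested. No paired analysis was possible because the genotypes share only 1 pool number and the recovered libraries carry none. The 8 abundant members have pooled values only, so their replicate error is unknown here.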
